A study of Mus musculus with 12 samples.

Results

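The genes described here encode kinases of the RAF, MEK and ERK cascade and partners that act directly on it. They are Araf, Braf, Ksr1, Map2k1, Map2k2, Mapk3 and Nras, 7 of the 21705 genes listed in the deposited tables, and each was found by its symbol. All 7 passed the filter on low counts, as did 13440 genes in all. Of the 7, Nras encodes a GTPase and Ksr1 a scaffold, so both belong to the cascade without being working RAF, MEK or ERK kinases.

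RNA was sequenced from the hearts of female FVB mice in 12 libraries, 3 per group. Control mice received water. The other groups were treated for 14 days, with a dose of 40 mg/kg/day for sunitinib, of 30 mg/kg/day for sorafenib and of 50 mg/kg/day for erlotinib. All groups share strain, sex and tissue, and the labels give no age. The labels do not say outright that each library came from its own animal, so the p-values cover the spread between libraries only, which may be technical. Sorafenib binds RAF kinases and also receptors for VEGF and PDGF. Sunitinib acts on those receptors and on KIT, and erlotinib acts on the EGF receptor. The question taken up here is whether the transcripts of the cascade differed in hearts exposed to these drugs. RNA levels say nothing of kinase activity.

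Growth factor receptors pass their signal through exchange factors to RAS GTPases, which recruit RAF kinases to the membrane. RAF phosphorylates MEK, MEK phosphorylates ERK, and ERK acts on further kinases and transcription factors, among whose targets are inhibitors of the same cascade. In the heart the cascade is known for its part in hypertrophic growth and in the survival of cardiomyocytes, and inherited activating variants of it cause hypertrophic cardiomyopathy in humans.

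The steps from RAF to MEK and from MEK to ERK end at short stretches of the target kinase, which are printed from the GENCODE M21 annotation of the build GRCm38 to show the sites and how alike the MEK genes are. Each stretch is 36 bases long on the coding strand, and capitals mark the codons of the phosphorylated residues. Those of Map2k1 (MEK1, chr9:64193717-64193752, minus strand, exon 6) encode serines 218 and 222. Those of Map2k2 (MEK2, chr10:81119331-81119366, plus strand, exon 6) encode serines 222 and 226. Those of Mapk3 (ERK1, chr7:126763449-126763484, plus strand, exon 4) encode threonine 203 and tyrosine 205.
Map2k1: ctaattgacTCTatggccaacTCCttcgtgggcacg
Map2k2: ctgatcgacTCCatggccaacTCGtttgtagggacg
Mapk3: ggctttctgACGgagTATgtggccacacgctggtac
The windows of Map2k1 and Map2k2 differ at 7 of 36 bases.

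How far reads could be told apart between the genes matters for every value that follows. Between any pair of the 7 genes, the longest identical run in annotated coding transcripts was 56 bases, shared by Map2k1 (codons 131 to 149) and Map2k2 (codons 135 to 153). It is shown because it is the place where reads of the MEK genes are hardest to separate.
Shared MEK stretch: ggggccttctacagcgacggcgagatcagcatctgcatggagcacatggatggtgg
The next longest run between members was 24 bases. The deposited effective length of each member was 75 bases below its transcript length, a gap that RSEM sets from the length of the sequenced fragment, and the shared stretch is shorter than that. All 84 deposited counts of the 7 genes (7 genes in 12 libraries) were exactly whole numbers, as RSEM gives where it divides no read between a gene and another. Over all listed genes 86.2% of the counts above 0 were whole.

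The levels of the 7 genes were compared with each other as TPM, the deposited unit that divides by transcript length. The RAF gene Araf stood highest, at 49.7 to 57.5 TPM over the 12 libraries, and the scaffold gene Ksr1 lowest, at 1.43 to 2.50 TPM. Map2k2 ran from 37.0 to 44.6 TPM and lay below Araf in 12 of 12 libraries. Mapk3 ran from 32.6 to 44.2 TPM, and its range overlapped that of Map2k2, which was higher in 9 of 12 libraries. Map2k1 followed at 20.6 to 28.0 TPM, below Mapk3 in every library. Nras ran from 7.08 to 11.5 TPM and Braf from 5.10 to 9.18 TPM, and Nras was higher than Braf in 11 of 12 libraries. The order was therefore Araf, then Map2k2 and Mapk3 with overlapping ranges, then Map2k1, then Nras and Braf with overlapping ranges, then Ksr1. TPM is used only for this order, since the listed genes carried 54.9% to 60.8% of a full TPM sum.

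**Figure D1:**
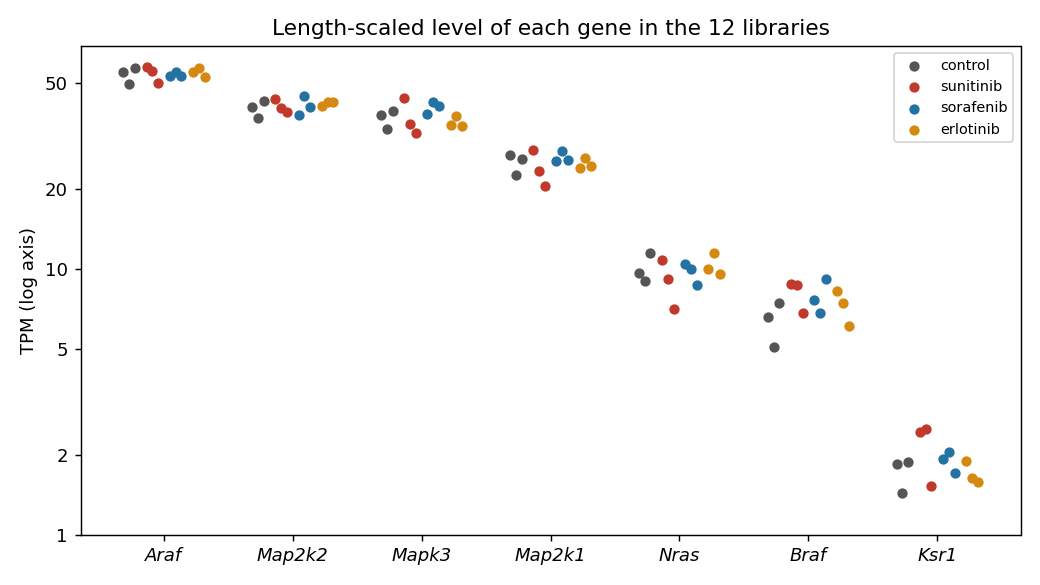
TPM of the 7 genes on a log axis, 1 point per library and coloured by group, with genes ordered by their median. Araf lies between 49.7 and 57.5 TPM and Ksr1 between 1.43 and 2.50 TPM. The ranges of the 4 groups overlap within each gene, with 1 exception. Mapk3 with sorafenib (38.37 to 42.68 TPM) lies above Mapk3 with erlotinib (34.5 to 37.66 TPM).

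Braf, which encodes the RAF kinase with the strongest basal activity, had a TPM that moved with its fitted transcript length. The mean transcript length that RSEM gave it ran from 4613 bases in Sorafenib_1373 to 6671 bases in Control_1366, a ratio of 1.45, whereas that of Map2k1 was 2387 bases in every library. Braf TPM was 9.18 in Sorafenib_1373 and 5.10 in Control_1366, so the same libraries held the extremes of both measures. The highest TPM was 1.80 times the lowest, against 1.21 times for the normalised counts. By group, the Braf length was 6020 ± 564 bases in control, 5480 ± 497 in sunitinib, 5381 ± 684 in sorafenib and 5494 ± 530 in erlotinib (SD, n = 3), and these ranges overlapped. Whether the length reflects isoforms or its estimation was not tested.

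**Figure D2:**
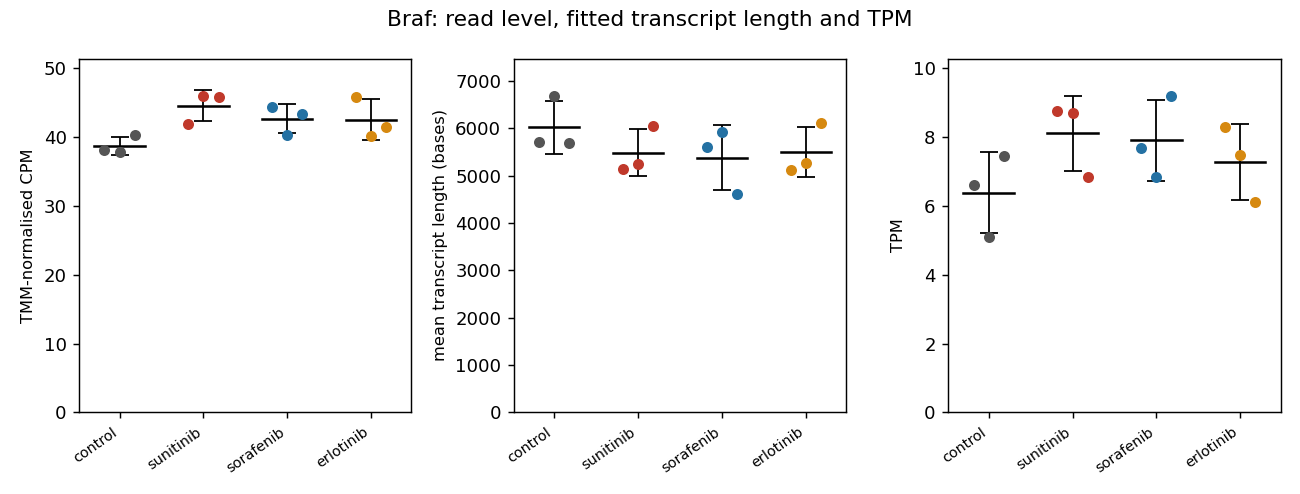
Braf by group as TMM-normalised CPM, as the fitted mean transcript length in bases and as TPM, with 1 point per library, a line at the group mean and bars of 1 SD (n = 3). Control_1366 has the longest fitted length (6671 bases) and the lowest TPM (5.10), while its CPM of 37.8 is close to that of the other control libraries.

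Against water, none of the 7 genes passed the test in any drug group. Levels are given from here on as TMM-normalised CPM, that is read counts scaled to library size and not divided by length, and a gene was called when its edgeR quasi-likelihood p, adjusted by Benjamini-Hochberg over 13440 genes, was under 0.05. In sunitinib against control 0 of 7 genes were called, where 0% of all genes were. In sorafenib against control 0 of 7 were called, where 0.00744% of all genes were, and in erlotinib against control 0 of 7, where 0.29% of all genes were. At an unadjusted p under 0.05 the counts were 2 of 7 for sunitinib, 0 of 7 for sorafenib and 1 of 7 for erlotinib, where 10.9%, 12.4% and 15.6% of all genes had one. DESeq2 and limma also called 0 of 7 in each. The smallest adjusted p among the 7 was 0.341 for sunitinib, 0.424 for sorafenib and 0.291 for erlotinib. The 3 comparisons share the same control libraries.

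The 95% intervals show which changes these libraries could still hold. For sorafenib they reached from 0.850-fold to 1.39-fold over the 7 genes, for erlotinib from 0.826-fold to 1.32-fold, and for sunitinib from 0.762-fold to 1.57-fold. Ksr1, which had 91 to 158 counts per library and a biological coefficient of variation of 0.122, set the upper ends. The median size of the log2 change was 0.09 for sunitinib, 0.06 for sorafenib and 0.10 for erlotinib over the 7 genes. Over all genes tested it was 0.12, 0.12 and 0.13.

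**Figure D3:**
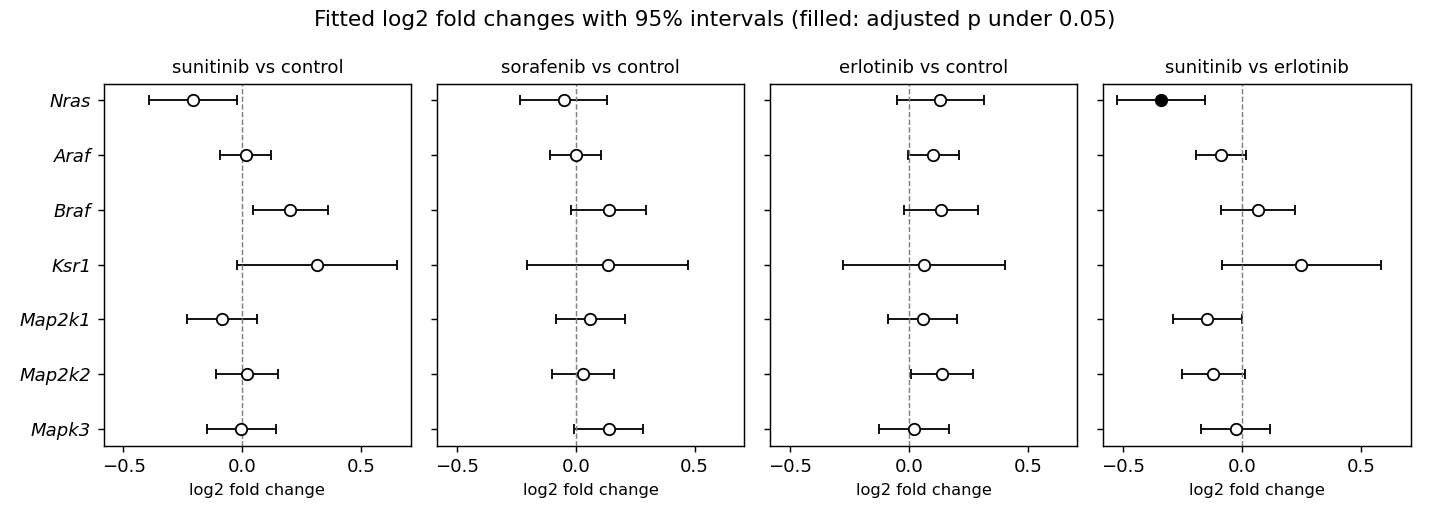
Fitted log2 fold changes of the 7 genes with 95% intervals for each drug against control and for sunitinib against erlotinib. A filled point has an adjusted p under 0.05, and the sole filled point is Nras in sunitinib against erlotinib, at -0.34.

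Nras, the RAS GTPase at the head of the cascade, gave the only call among the 7 genes, and it lay between drugs. Its level was 34.0, 36.9 and 39.1 CPM in the control libraries, 35.2, 31.5 and 28.5 CPM with sunitinib, 36.5, 35.1 and 34.6 CPM with sorafenib, and 39.0, 42.6 and 38.9 CPM with erlotinib. All sunitinib libraries lay below all erlotinib libraries, while control overlapped both. The mean was 31.7 ± 3.38 CPM with sunitinib and 40.2 ± 2.08 CPM with erlotinib (SD, n = 3 each), a log2 difference of -0.34 ± 0.09 (SE; 95% interval -0.52 to -0.16, adjusted p = 0.0242), or 21.0% lower. Against control, Nras stood at -0.21 ± 0.09 with sunitinib (adjusted p = 0.405), -0.05 ± 0.08 with sorafenib (adjusted p = 0.851) and 0.13 ± 0.08 with erlotinib (adjusted p = 0.488), so neither side of the difference was called by itself. In this comparison 1 of 7 genes was called, where 11.9% of all genes were, a share that 1 gene in 7 does not stand out from.

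The Nras call was lost in several fits with 1 library left out. Its adjusted p was 0.0724 without Sunitinib_1369, 0.0835 without Sunitinib_1370, 0.0833 without Erlotinib_1375 and 0.0652 without Erlotinib_1376. In these fits, in that order, 783, 798, 832 and 404 of all genes were called, against 1595 with all libraries. The log2 difference of Nras over the alternatives ran from -0.42 to -0.27. Limma on the authors' scaled signal gave adjusted p = 0.0522. Sunitinib_1370, with the lowest Nras, also had the lowest summed level of the 9 listed atrial markers, at 139 CPM against 671 and 942 CPM in the other sunitinib libraries and 231 to 538 CPM with erlotinib. With the atrial score as a covariate the difference was -0.37 (adjusted p = 0.0276). The 8 listed skeletal muscle markers, which include Ckm and Acta1 of heart muscle, summed to 2569 to 2574 CPM with sunitinib and 2712 to 3109 CPM with erlotinib, with 1 or 2 of them at 0 in each library. The 7 listed blood markers overlapped in summed level (1014 to 1744 CPM with sunitinib, 897 to 1634 CPM with erlotinib), but their score, the mean centred log2 CPM, ran from -0.12 to 0.28 with sunitinib and from 0.30 to 0.76 with erlotinib. Up to 1 was at 0 in a sunitinib library and none in an erlotinib library. Cardiomyocyte markers summed to 92522 to 99596 CPM with sunitinib and 89103 to 92430 CPM with erlotinib, with overlapping scores. Of the 12 libraries, Sunitinib_1370 had the highest cardiomyocyte sum and the lowest endothelial sum (855 CPM). Its fibroblast score (-0.88) was also the lowest, though its fibroblast sum was not. The part of the cardiomyocyte, endothelial, fibroblast, skeletal muscle and blood markers in the result was not tested.

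Among the RAF genes, Araf kept the narrowest range. Its level was 91.5 CPM in each of the 3 control libraries, 91.5, 93.8 and 91.8 CPM with sunitinib, 90.8, 92.6 and 91.3 CPM with sorafenib, and 99.2, 96.5 and 99.0 CPM with erlotinib. On this scale the erlotinib libraries lay above all 9 others. On the authors' scaled signal they did not, since Erlotinib_1375 (2078.5) lay below Sunitinib_1369 (2101) and level with Control_1367 (2078.7). Against control the log2 change with erlotinib was 0.10 ± 0.05 (adjusted p = 0.343), or 0.05 with limma on that signal, and with sorafenib it was 0.00 ± 0.05 (adjusted p = 0.996). The interval for sorafenib ran from 0.929-fold to 1.08-fold.

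Braf was at 38.1, 37.8 and 40.2 CPM in control, 41.9, 45.9 and 45.8 CPM with sunitinib, 44.4, 40.3 and 43.3 CPM with sorafenib, and 45.8, 40.2 and 41.5 CPM with erlotinib. All sunitinib and sorafenib libraries lay above all control libraries, the nearest sorafenib library by a narrow margin, while erlotinib overlapped control. On the authors' scaled signal sorafenib overlapped control too, with Sorafenib_1372 (899) below Control_1367 (915). The log2 change was 0.20 ± 0.07 with sunitinib (adjusted p = 0.341), 0.14 ± 0.07 with sorafenib (adjusted p = 0.461) and 0.13 ± 0.07 with erlotinib (adjusted p = 0.403).

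Ksr1 encodes a relative of RAF with little or no kinase activity that holds RAF, MEK and ERK together. It was at 7.51, 6.43 and 7.16 CPM in control, 9.17, 10.2 and 6.82 CPM with sunitinib, 7.93, 8.18 and 7.06 CPM with sorafenib, and 8.26, 6.72 and 7.08 CPM with erlotinib. The sunitinib libraries were split, with Sunitinib_1370 inside the control range and the other libraries above it. The log2 change with sunitinib was 0.31 ± 0.16 (adjusted p = 0.501), and it was 0.46 without Sunitinib_1370 (adjusted p = 0.491) and 0.19 without Sunitinib_1369.

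The MEK genes differed in which drug group held their extremes. Map2k1 was at 63.5, 58.5 and 58.0 CPM in control, 61.2, 55.0 and 53.3 CPM with sunitinib, 61.9, 64.6 and 61.5 CPM with sorafenib, and 60.9, 62.8 and 63.8 CPM with erlotinib. Sunitinib_1369 and Sunitinib_1370 were the lowest of the 12 libraries. The log2 change with sunitinib was -0.09 ± 0.07 against control (adjusted p = 0.687) and -0.15 ± 0.07 against sorafenib (adjusted p = 0.493). In CPM the sunitinib and sorafenib groups were apart by a narrow margin, 61.23 CPM in Sunitinib_1368 against 61.54 CPM in Sorafenib_1373. On the authors' scaled signal they overlapped, with Sunitinib_1368 above Sorafenib_1371 and Sorafenib_1373.

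Map2k2 was at 95.4, 95.7 and 94.8 CPM in control, 94.6, 94.6 and 100.6 CPM with sunitinib, 91.8, 103 and 97.1 CPM with sorafenib, and 103, 102 and 109.7 CPM with erlotinib. All erlotinib libraries lay above all control and sunitinib libraries, and they overlapped sorafenib through Sorafenib_1372. The log2 change with erlotinib was 0.14 ± 0.06 (adjusted p = 0.291). On the authors' scaled signal Erlotinib_1375 (2192) lay below Sunitinib_1370 (2208), and limma on that signal gave a Map2k2 change of 0.09.

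Mapk3, the ERK gene among the 7, was at 64.4, 63.2 and 62.8 CPM in control, 69.6, 59.3 and 60.7 CPM with sunitinib, 66.9, 71.4 and 71.2 CPM with sorafenib, and 63.6, 64.9 and 64.8 CPM with erlotinib. The sorafenib libraries lay above all control and erlotinib libraries, and Sunitinib_1368 fell among them. The log2 change with sorafenib was 0.14 ± 0.07 (adjusted p = 0.424), with an interval from 0.995-fold to 1.22-fold. The 9 listed macrophage markers summed to 172 to 227 CPM with sorafenib against 287 to 317 CPM in control, with none at 0, and their part in the Mapk3 values was not tested. In whole tissue, fewer cells of a type and less RNA per cell cannot be told apart.

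**Figure D4:**
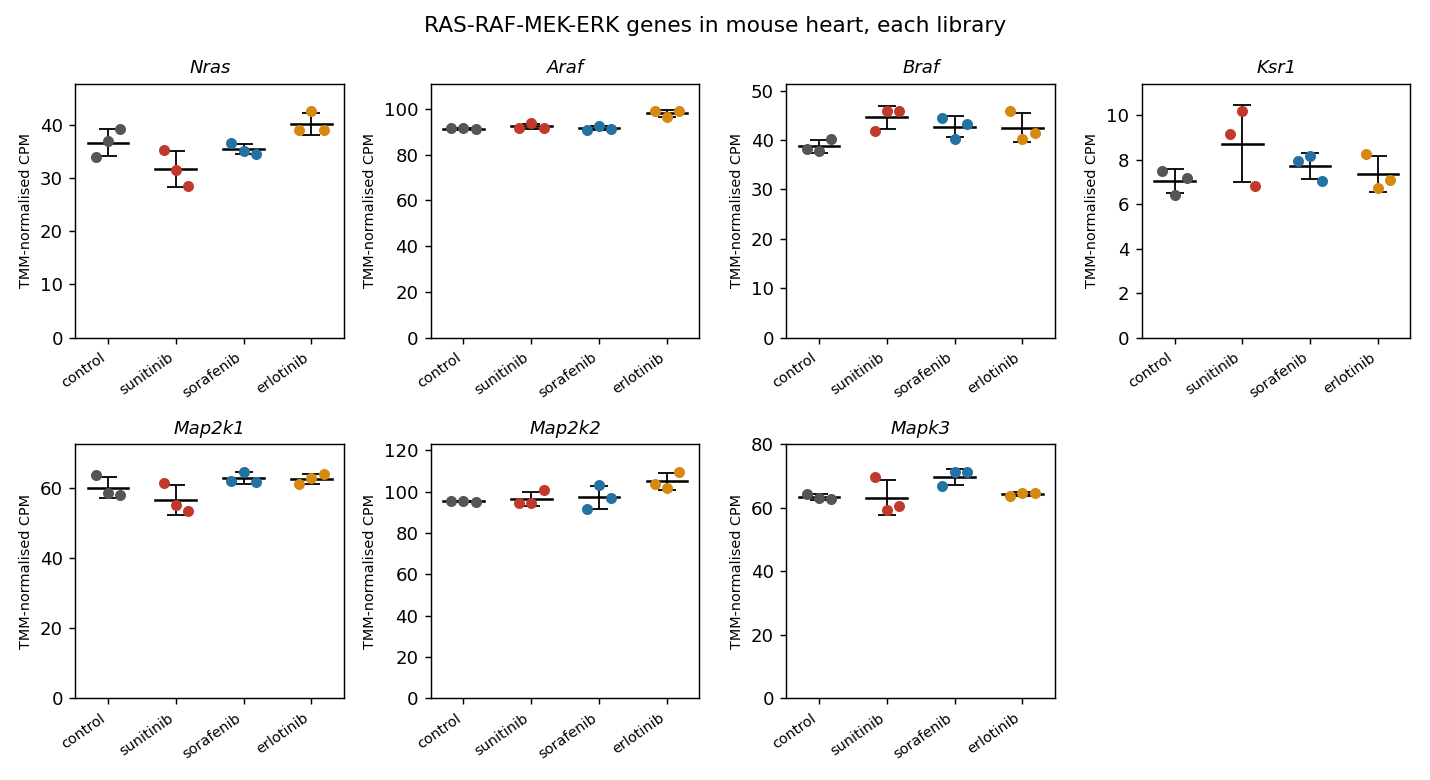
TMM-normalised CPM of the 7 genes in each library by group, with a line at the group mean and bars of 1 SD (n = 3). Nras is lowest with sunitinib (28.5 to 35.2 CPM) and highest with erlotinib (38.9 to 42.6 CPM), Araf with erlotinib (96.5 to 99.2 CPM) lies above the other groups on this scale but not on the authors' scaled signal, and Mapk3 with sorafenib (66.9 to 71.4 CPM) lies above control.

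Counting genes whose groups did not overlap in CPM gave shares to be read against all genes. Against control these were Araf and Braf for sunitinib (2 of 7, where 14.6% of all genes did not overlap), Araf by only 91.54 against 91.50 CPM, Braf and Mapk3 for sorafenib (2 of 7, against 16.3%), and Araf and Map2k2 for erlotinib (2 of 7, against 20.6%). Between drugs it was Map2k1 for sunitinib and sorafenib (1 of 7, against 14.6%). For sunitinib and erlotinib these were Araf, Map2k2 and Nras (3 of 7, against 33.7%), and for sorafenib and erlotinib Araf, Mapk3 and Nras (3 of 7, against 25.2%). All of these counts are small enough that 1 gene moves them far from or close to the background. On the authors' scaled signal some of the groups named above did overlap. Against control this held for Araf (sunitinib and erlotinib) and Braf (sorafenib). Between drugs it held for Map2k1 (sunitinib and sorafenib) and for Araf and Map2k2 (sunitinib and erlotinib). The share of all genes was not counted on that signal.

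In the other comparisons between drugs no member was called. These compare regimens, since the doses differ in mg/kg/day. In sunitinib against sorafenib 0 of 7 genes were called, where 0.0372% of all genes were, and in sorafenib against erlotinib 0 of 7, where 2.7% of all genes were. The unadjusted p was under 0.05 for 1 of 7 genes in each, Map2k1 (where 9.86% of all genes had one) and Nras (where 19.4% had one), and DESeq2 and limma called 0 of 7. When the 4 groups were tested together for any difference, 0 of 7 genes were called, where 5.45% of all genes were. The adjusted p was 0.108 for Nras and 0.285 to 0.488 for the other members, and DESeq2 called 0 of 7 there too. The unadjusted p was under 0.05 for Nras alone, at 0.0121.

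Across all 12 libraries the 7 genes varied to different degrees. The SD of log2 CPM was 0.05 for Araf, and 0.379% of the genes tested had a lower one. It was 0.07 for Map2k2, 0.08 for Mapk3, 0.09 for Map2k1 and 0.10 for Braf, and for Nras (0.15) and Ksr1 (0.19) it was near the median of all genes tested, 0.18. The RAF, MEK and ERK kinase genes among the 7 spread less than the median gene. They were also abundant, with a mean CPM above that of 68.9% (Braf) to 87.0% (Map2k2) of the genes tested. That share was 64.9% for Nras and 29.0% for Ksr1. The spread was not compared with that of genes of like level.

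Members whose levels went up and down across the same libraries are given as a description over 12 libraries that share treatment groups. Pearson's r was 0.79 (Spearman's rho 0.66) for Araf and Map2k2 and 0.72 (rho 0.76) for Map2k1 and Mapk3. For Map2k1 and Nras r was 0.62 but rho 0.21. For Braf and Map2k1 r was -0.47 (rho -0.44). The gene most like each member was sought by the highest Pearson r of log2 CPM over the 12 libraries, among genes with an official symbol and a mean of at least 10 CPM (8387 genes, and 8388 for Ksr1). It was Slc47a1 for Araf (r = 0.94), Ezh1 for Braf (r = 0.92), Ipo8 for Ksr1 (r = 0.86), Ugp2 for Map2k1 (r = 0.93), Fhl2 for Map2k2 (r = 0.95), Dvl3 for Mapk3 (r = 0.92) and Tpm3 for Nras (r = 0.96). The tenth most like gene still reached r = 0.78 to 0.90, so these are examples from many.

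Rras2 (R-Ras2, also called TC21), a RAS-related GTPase, was called between the same drugs as Nras. It comes from a list of 8 further RAS, RAF, MEK and ERK genes, of which 6 were tested and 1 was called. It was at 84.1, 81.7 and 73.1 CPM in control, 63.7, 55.5 and 60.9 CPM with sunitinib, 68.0, 64.4 and 72.4 CPM with sorafenib, and 87.6, 99.2 and 103 CPM with erlotinib. The sunitinib and sorafenib libraries all lay below the erlotinib libraries, and the sunitinib and sorafenib libraries also lay below all control libraries. The log2 difference was -0.69 ± 0.08 for sunitinib against erlotinib (adjusted p = 0.00111), which passed in each alternative, and -0.50 ± 0.08 for sorafenib against erlotinib (adjusted p = 0.0210). The second lost its call without Sorafenib_1372, Sorafenib_1373, Erlotinib_1375 or Erlotinib_1376 (-0.57 to -0.45 over the alternatives). In these fits, in that order, 50, 12, 19 and 1 of all genes were called, against 363 with all libraries. Against control, Rras2 was at -0.41 ± 0.08 with sunitinib (adjusted p = 0.203), -0.22 ± 0.08 with sorafenib (adjusted p = 0.308) and 0.28 ± 0.08 with erlotinib (adjusted p = 0.149).

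Rras also had its lowest mean with sunitinib and its highest with erlotinib, without being called. Its level was 42.4 ± 4.28 CPM with sunitinib and 51.9 ± 4.31 with erlotinib, a log2 difference of -0.29 ± 0.09 (adjusted p = 0.0632). Mras, whose protein forms a phosphatase complex that activates RAF, went the other way, at 9.49 ± 0.876 CPM with sunitinib and 6.95 ± 1.10 with erlotinib (log2 0.45 ± 0.14, adjusted p = 0.0515).

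**Figure D5:**
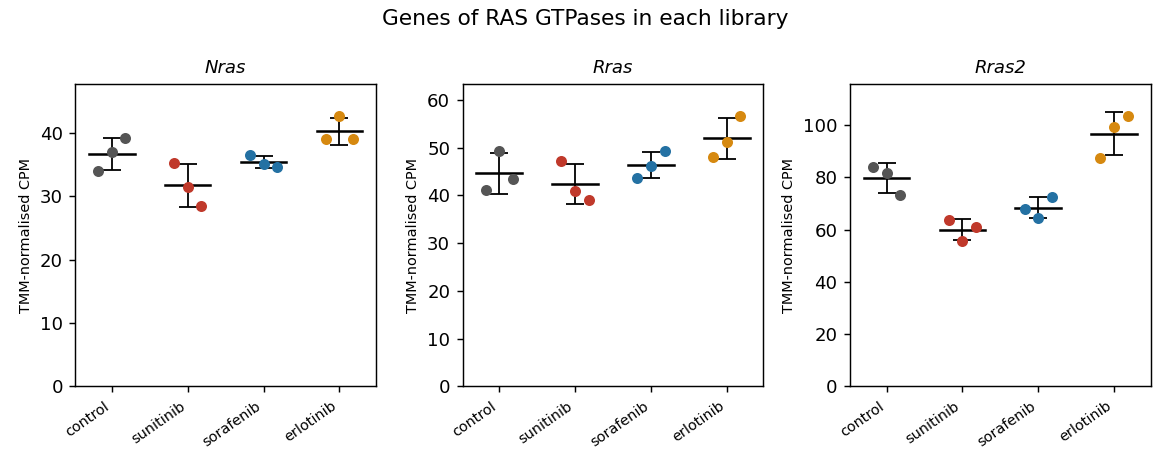
TMM-normalised CPM of the RAS GTPase genes Nras, Rras and Rras2 in each library by group, with a line at the group mean and bars of 1 SD (n = 3). Rras2 runs from 55.5 to 63.7 CPM with sunitinib and from 87.6 to 103 CPM with erlotinib, and all 3 genes have their lowest mean with sunitinib and their highest with erlotinib.

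Around the 7 genes, 115 further genes of the pathway and of other MAP kinase cascades were tested. In sorafenib against control 0 of 115 were called by edgeR, with 19 at an unadjusted p under 0.05 and 1 called by DESeq2. In sunitinib against control 0 were called, with 17 at an unadjusted p under 0.05 and 2 called by DESeq2. In erlotinib against control 2 were called (1.74%, where 0.29% of all genes were), both higher, with 21 at an unadjusted p under 0.05 and 6 called by DESeq2. In sunitinib against sorafenib 0 were called, with 19 at an unadjusted p under 0.05 and 2 by DESeq2. In sunitinib against erlotinib 21 were called (18.3%, where 11.9% of all genes were), 6 higher and 15 lower, with 45 at an unadjusted p under 0.05, 26 called by DESeq2 and 18 by limma. In sorafenib against erlotinib 4 were called (3.48%, where 2.7% of all genes were), all lower, with 24 at an unadjusted p under 0.05 and 12 called by DESeq2. Over all 13440 genes, the shares at an unadjusted p under 0.05 were 12.4%, 10.9%, 15.6%, 9.86%, 28.1% and 19.4%, in the order given. DESeq2 called 175, 86, 363, 139, 1934 and 828 of all genes, in the same order. Limma on log2 of the scaled signal plus 1 called 1713 in sunitinib against erlotinib.

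Upstream of RAS, 16 of 18 exchange factors and adaptors were tested, and 2 were higher and 2 lower with sunitinib than with erlotinib. Gab1, a docking protein of receptor signalling, was at 95.03 ± 5.70 CPM with sunitinib and 66.7 ± 6.81 with erlotinib (log2 0.51 ± 0.09, adjusted p = 0.00536), and Frs3, an adaptor of growth factor receptors, had a difference of 0.53 ± 0.15. Crk, an adaptor, had one of -0.28 ± 0.06, and Rapgef1, the exchange factor that Crk brings to Rap1, one of -0.56 ± 0.11. The Frs3 call passed in 1 of 6 fits with 1 library left out. With sorafenib against control the smallest p were those of Rasgrp2 (0.43 ± 0.14, adjusted p = 0.244), Sos1 (0.28 ± 0.11, adjusted p = 0.335) and Ptpn11 (0.18 ± 0.07, adjusted p = 0.338), and Sos1 was at 0.17 without Control_1366. The median of the list there was 0.08, with 11 of 16 genes above 0, against 0.00 for all genes.

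Of the GTPase activating proteins that switch RAS off, 7 of 9 were tested, and Dab2ip was lower with sunitinib than with erlotinib (-0.25 ± 0.07, adjusted p = 0.0341). The Dab2ip call passed in 0 of 6 fits with 1 library left out, and it was also lost with limma and with the atrial score as a covariate. With sorafenib 7 of 7 lay above 0 against control, with a median of 0.08 (-0.0007 for all genes), and none was called. Nf1 (0.01 ± 0.10) and Rasa3 (0.01 ± 0.09) lay within 1 SE of 0. The smallest p were those of Rasa4 (0.46 ± 0.17, adjusted p = 0.309), Rasal2 (0.50 ± 0.23, adjusted p = 0.407) and Rasa1 (0.11 ± 0.07, adjusted p = 0.540). Each moved by over 1.5 times with 1 library left out. Rasal2 was at 0.16 without Sorafenib_1371, Rasa4 at 0.30 without Control_1366 and Rasa1 at 0.06 without Sorafenib_1373.

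Of the scaffolds and regulators of RAF, MEK and ERK, 28 of 32 were tested, and with sunitinib 1 was higher and 6 were lower than with erlotinib. The higher was Fntb, a subunit of the farnesyltransferase that lipidates RAS (0.60 ± 0.14, adjusted p = 0.0180). The lower were the 14-3-3 genes Ywhaz (-0.33 ± 0.08) and Ywhaq (-0.40 ± 0.11), whose proteins bind phosphorylated RAF, Rap1b (-0.44 ± 0.09), a RAS-related GTPase, Pebp1 (-0.24 ± 0.07), the RAF kinase inhibitor protein, Lamtor3 (-0.23 ± 0.06), the MEK1 partner on endosomes, and Cnksr3 (-0.71 ± 0.20). With 1 library left out, the calls of Pebp1, Lamtor3 and Ywhaq passed in 1 of 6 fits each and that of Cnksr3 in 2 of 6. Those of Fntb, Rap1b and Ywhaz passed in 3, 5 and 5 of 6. Pebp1, Lamtor3, Ywhaq and Cnksr3 were also lost with limma, and all of these but Ywhaq with the atrial score as a covariate. Cnksr3 was also lower with sorafenib than with erlotinib (-0.89 ± 0.20, adjusted p = 0.0434), a call that passed in 1 of 6 such fits. With sorafenib against control the smallest p were those of Cnksr1 (0.88 ± 0.26, adjusted p = 0.227), Brap (0.19 ± 0.07, adjusted p = 0.303) and Pak1 (-0.52 ± 0.25, adjusted p = 0.415). Pak1 had a low level, at 1.02 to 2.33 CPM over the 12 libraries, and its change was -0.33 without Sorafenib_1373.

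Downstream of ERK, 13 of 13 substrate kinases and transcription factors were tested. With sunitinib against erlotinib, Rps6ka5 (MSK1) was higher (0.99 ± 0.22, adjusted p = 0.0141) and Rps6ka2 (RSK3) lower (-0.58 ± 0.13, adjusted p = 0.0149). With sorafenib against control the smallest p were those of Rps6ka3 (0.26 ± 0.09, adjusted p = 0.265), Mknk2 (0.28 ± 0.11, adjusted p = 0.334) and Srf (0.22 ± 0.09, adjusted p = 0.351), and Mknk2 was at 0.15 without Sorafenib_1371.

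By edgeR, both calls of listed genes against control were feedback and output genes of ERK. Of 25, 22 were tested, and with erlotinib 2 rose. DESeq2 called 3 of this list with erlotinib and 1 with sunitinib. It also called 2 exchange factors or adaptors and 1 scaffold or regulator with erlotinib, 1 scaffold or regulator with sorafenib, and 1 of the further RAS, RAF, MEK and ERK genes with sunitinib. Spry4, an inhibitor of receptor signalling to ERK, was at 14.6, 14.8 and 13.0 CPM in control and 35.8, 29.0 and 44.9 CPM with erlotinib (log2 1.37 ± 0.15, adjusted p = 0.00642). Epha2, an ephrin receptor that ERK induces, was at 7.72, 8.90 and 10.0 CPM in control and 15.5, 16.0 and 15.9 CPM with erlotinib (0.83 ± 0.13, adjusted p = 0.0385). For both genes the erlotinib libraries lay above all control libraries. Both calls were lost without Control_1365 or Control_1367, and that of Epha2 also without any erlotinib library or with the atrial score as a covariate (adjusted p up to 0.199 for Epha2 and up to 0.0847 for Spry4).

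Among the same genes, 2 were higher and 4 lower with sunitinib than with erlotinib. The lower were Spry4 (-1.56 ± 0.15), Myc (-1.56 ± 0.35), Epha2 (-0.86 ± 0.13) and Spry1 (-0.58 ± 0.13), and the higher were Ier3 (1.10 ± 0.29) and Etv1 (0.72 ± 0.16). The Ier3 call passed in 1 of 6 fits with 1 library left out. With sorafenib, Spry4 (-1.06 ± 0.15, adjusted p = 0.00873) and Myc (-1.68 ± 0.35, adjusted p = 0.0364) were lower than with erlotinib. With sorafenib against control the smallest p were those of Epha2 (0.42 ± 0.13, adjusted p = 0.240), Etv1 (-0.43 ± 0.16, adjusted p = 0.299) and Ier3 (0.81 ± 0.29, adjusted p = 0.308). The median of the list against control was 0.28 with erlotinib, 0.18 with sorafenib and 0.00 with sunitinib, while that of all genes was -0.01, 0.00 and 0.00. In the same order 14, 14 and 11 of its 22 tested genes lay above 0, and 8, 8 and 11 lay below. Of the 21 calls in sunitinib against erlotinib, those of Epha2, Gab1, Rras2 and Spry4 passed in each alternative tried, and the other 17 were lost without at least 1 library.

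The tissue label was checked on 9 cardiomyocyte markers, which summed to 89103 to 99596 CPM in the 12 libraries with none at 0. Their sum with sunitinib (92522 to 99596 CPM) lay above all control (89203 to 92385 CPM) and erlotinib libraries (89103 to 92430 CPM). Their score overlapped, at -0.02 to 0.17 with sunitinib, -0.09 to -0.01 in control and -0.03 to 0.07 with erlotinib. The libraries held 14.3 to 16.5 M expected counts each. The 9 listed atrial markers varied within groups, from 411 to 638 CPM in control, 139 to 942 CPM with sunitinib, 200 to 745 CPM with sorafenib and 231 to 538 CPM with erlotinib, with up to 2 of them at 0 in a library. Each drug group held libraries below all control libraries. These were Sunitinib_1370 (139 CPM), Sorafenib_1371 (210 CPM), Sorafenib_1373 (200 CPM), Erlotinib_1375 (263 CPM) and Erlotinib_1376 (231 CPM). The 6 listed fat markers summed to 17.0 to 30.5 CPM in control and 4.60 to 12.5 CPM with sorafenib, with up to 2 at 0 in a library. Endothelial, fibroblast and smooth muscle markers overlapped between control and each drug group. The blood marker score was 0.30 to 0.76 with erlotinib and -0.38 to 0.16 in control, while their sums overlapped. Skeletal muscle markers summed to 2569 to 2574 CPM with sunitinib and 2845 to 2992 CPM in control. Beyond the fit with the atrial score, the part of cardiomyocyte, atrial, blood, skeletal muscle and fat markers in the values of the 7 genes or the further genes was not tested.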

How the data were processed

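Heart RNA of 12 libraries was analysed. The authors deposited RSEM expected counts per gene for each library, TPM (scaled to library size and transcript length), the transcript length in bases and a scaled signal (the expected count times 1 factor per library), per the file headers. RSEM, Picard 1.88, SAMtools 1.2 and the build mm9 are named per the submitters' processing notes. The aligner is not given in the sources used here, nor are the RSEM version and annotation release. Per the labels, polyA RNA was made into stranded libraries.

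Expected counts of 21705 genes were rounded, filtered with filterByExpr (13440 genes left) and fitted with the robust quasi-likelihood model of edgeR 4.0.16 (R 4.3.3, TMM, 1 coefficient per group, all 12 libraries). Tests were two-sided. Library totals were 14.3 to 16.5 M, TMM factors 0.949 to 1.04, and the median biological coefficient of variation 0.105. Values are mean ± SD over 3 libraries, and log2 changes ± SE of the fit. Marker sums are plain CPM over all listed genes, and a marker score is the mean centred log2 CPM.

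Alternatives were DESeq2 1.42.0, RLE factors, no low-count filter, omitting the 20 most abundant genes, a fit of only the 2 groups compared, limma 3.58.1 on log2 of the signal plus 1 or 10, the atrial score as a covariate, and leaving out each library. Applying them to called genes of the other lists, and leaving out libraries for genes named for a small p with sorafenib, was added after the data were seen. The members and gene lists were chosen with earlier results of these data known. From the lists were named the genes that passed any comparison, the 3 of smallest p in sorafenib against control, and further RAS genes. Some genes of the lists are not reported here. Sequences come from GENCODE M21 (GRCm38), another build than the authors', and no mm9 positions are given.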

Additional observations from a re-analysis of the deposited data

How the results depend on the processing

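No paired analysis was possible because the groups share no replicate numbers. Of the 7 members, 0 were called against control under each alternative tried. In sunitinib against erlotinib the count of members called was 1, or 0 with limma at either pseudocount, and 0 to 1 when 1 library was left out.

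The numbers of all genes called moved more. With DESeq2 they were 86, 175 and 363 against control (in the order sunitinib, sorafenib, erlotinib), 139 for sunitinib against sorafenib and 828 for sorafenib against erlotinib, in place of 0, 1, 39, 5 and 363. With limma they were 4 for sorafenib against control at either pseudocount, and 3 for sunitinib against sorafenib at a pseudocount of 1. With no filter they were 1, 20 and 9 for sunitinib against control, sorafenib against control and sunitinib against sorafenib. With only the 2 groups compared they were 0 for sunitinib against sorafenib and 686 for sorafenib against erlotinib. With the atrial covariate they were 1, 0 and 1 against control and 2 for sunitinib against sorafenib. With 1 library left out they ran from 0 to 12, from 0 to 88 and from 0 to 236 against control, in that order. Between drugs they ran from 0 to 37 for sunitinib against sorafenib, from 404 to 1314 for sunitinib against erlotinib and from 1 to 190 for sorafenib against erlotinib. The cause was not tested.

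Log2 changes of members close to 0 changed sign without being called. Araf in sorafenib against control was -0.0034 with DESeq2, -0.0036 with RLE factors, -0.0018 with only the 2 groups compared and -0.016 with limma at either pseudocount. In sorafenib against erlotinib Braf was -0.0031, -0.0027 and -0.00062 with DESeq2, RLE factors and the atrial covariate, and Map2k1 was -0.0035 and -0.0039 with DESeq2 and RLE factors. With limma at either pseudocount Mapk3 was -0.031 in erlotinib against control and 0.021 in sunitinib against erlotinib, and Map2k2 was 0.0073 in sunitinib against sorafenib. With 1 library left out, sunitinib against control ran from -0.0096 to 0.035 for Map2k2 and from -0.080 to 0.039 for Mapk3, and sorafenib against control from -0.0064 to 0.0099 for Araf and from -0.012 to 0.074 for Map2k2. Erlotinib against control ran from -0.027 to 0.12 for Ksr1. Sunitinib against sorafenib ran from -0.00041 to 0.021 for Araf and from -0.059 to 0.032 for Map2k2, sunitinib against erlotinib from -0.10 to 0.018 for Mapk3, and sorafenib against erlotinib from -0.035 to 0.061 for Braf and from -0.019 to 0.016 for Map2k1.

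Of the 21 pathway genes called in sunitinib against erlotinib, 16 lost the call without Erlotinib_1376, 11 without Sunitinib_1369, 10 without Erlotinib_1375, 7 without Sunitinib_1370, 6 without Sunitinib_1368 and 4 without Erlotinib_1374. The atrial covariate lost 6, limma at either pseudocount 5, the fit of only the 2 groups compared 5, and no filter 4. In sorafenib against erlotinib 4 of 4 were lost without Erlotinib_1376, 3 without each of Erlotinib_1375, Sorafenib_1372 and Sorafenib_1373, 2 without Sorafenib_1371, and 1 each with no filter and with only the 2 groups compared. The widest intervals among members were those of Ksr1, at 91 to 158 counts.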

Other observations

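The genes of the other MAP kinase cascades (the JNK, p38 and ERK5 branches and atypical kinases such as Nlk) were read beside those of the RAF, MEK and ERK cascade. Of 25 such genes 23 were tested. By edgeR 0 were called in any of the 6 comparisons, where 0% to 11.9% of all genes were. At an unadjusted p under 0.05 there were 1, 3 and 1 for sunitinib, sorafenib and erlotinib against control. Between drugs there were 0 for sunitinib against sorafenib, 6 for sunitinib against erlotinib and 2 for sorafenib against erlotinib. Over all genes the shares at that p were 10.9%, 12.4% and 15.6% against control and 9.86%, 28.1% and 19.4% between drugs, in the same order. DESeq2 called 1 in sorafenib against erlotinib and 0 elsewhere, and limma called 0. The smallest p in sorafenib against control were those of Map3k1 (33.9 ± 3.35 against 25.9 ± 6.97 CPM, log2 0.38 ± 0.16, adjusted p = 0.349), Map3k5, which encodes ASK1 (0.23 ± 0.10, adjusted p = 0.353), and Map2k6, an activator of p38 (0.66 ± 0.28, adjusted p = 0.362). Without Sorafenib_1371 Map2k6 was at 0.21 and Map3k5 at 0.09, and without Control_1366 Map3k1 was at 0.19. The median log2 change of the 23 genes was 0.01 with sunitinib, 0.06 with sorafenib and 0.02 with erlotinib.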
